A study of Mus musculus with 15 samples.

Results

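Mouse oocytes grown in culture were compared with oocytes grown in the animal, in 6 of the 15 oocyte libraries of the series and over all 21009 genes that passed a filter on low counts. The in vitro growth group (IVG) holds the 3 libraries of day 10 of follicle culture in medium without added neurotrophin-4 (NT-4), and the in vivo group (IVV) holds 3 libraries, titled with the replicate numbers 2, 3 and 4. All animals were Kunming mice, an outbred stock. For IVG, preantral follicles were dissected by hand from ovaries of females 12 to 14 days old and cultured individually in medium with fetuin, albumin, insulin, transferrin and FSH at 10 mIU/mL. For IVV, cumulus-oocyte complexes were taken by puncture of antral follicles, and the methods, which name ovaries of mice aged 2 and 6 weeks, do not tie these oocytes to an age. Age at collection, the follicle's surroundings and the time outside the animal therefore cannot be told apart between the groups. In both groups the oocytes were at the germinal vesicle stage, the cumulus cells were stripped with hyaluronidase, and each library was made from a pool of 6 oocytes. The comparison asks which transcripts of an oocyte that ends its growth in a dish differ from those of an oocyte that ends it in the ovary.

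A mouse oocyte grows inside its follicle while arrested in meiotic prophase, and during this growth it transcribes and stores the messenger RNA that will serve maturation, fertilization and the earliest cleavages. Ribosomes, mitochondria and the zona pellucida are built up in the same period. By the end of growth transcription falls silent, so that the level of a messenger in a full-grown oocyte depends on its earlier synthesis and on its storage, polyadenylation and decay. The surrounding granulosa cells supply the oocyte with pyruvate and cholesterol and keep it in arrest through cyclic nucleotides.

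The 6 libraries fell into 2 kinds, and the kinds cut across the groups. The annotated ribosomal RNA gene CT010467.1 took 37.9% of all counts in IVV replicate 3, 16.4% in IVG replicate 1 and 12.5% in IVG replicate 2, whereas it took 0.187% and 0.227% in IVV replicates 2 and 4 and 0.593% in IVG replicate 3. The former are called rRNA-rich and the latter rRNA-poor below, and how they came to differ is not given in the sources used here. Total counts per library were 19033272 to 45575465, with 18242 to 22966 genes counted. The Spearman correlation across genes was 0.963 between IVV replicates 2 and 4 and 0.944 between IVG replicates 1 and 2, but only 0.765 to 0.771 between IVV replicate 3 and the other IVV libraries and 0.847 to 0.850 between IVG replicate 3 and the other IVG libraries. IVG replicate 3 correlated more closely with the IVV libraries of its own kind (0.936 to 0.939) than with those of its own group. Each gene was therefore also compared between libraries of like kind: IVG replicates 1 and 2 with IVV replicate 3 (rRNA-rich), and IVG replicate 3 with IVV replicates 2 and 4 (rRNA-poor). No library takes part in both of these comparisons. The summed level of 18 oocyte markers was alike in all libraries, at 21263 to 25221 normalized CPM (counts scaled to the library's effective total), and none of them was at 0 in any library. As levels are shares of the counted RNA of a pool, a smaller amount of a transcript per oocyte and a larger amount of all others cannot be told apart.

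Few genes passed the study's threshold, and none passed a correction for multiple tests in the test used throughout. Genes were counted as differentially expressed (DEGs) if the quasi-likelihood test of edgeR gave P under 0.05 before adjustment and the log2 fold change exceeded 1 in size. In the fit of group means, 579 genes were DEGs (2.76% of those tested), of which 177 were higher in IVG (0.842%) and 402 lower (1.91%). With the kind of library added to the fit, 805 genes were DEGs (3.83%), 260 of them higher (1.24%) and 545 lower (2.59%). Both fits covered all 15 libraries, so those of day 6 and of NT-4 culture also entered the filter, the scaling and the estimate of spread. In the quasi-likelihood test with Benjamini-Hochberg adjustment no gene passed in either fit and the adjusted p was 1 for every gene, although 579 and 840 genes had an unadjusted P under 0.05, and the Wald test of DESeq2 gave 66 and 272 genes with an adjusted p under 0.05. The count of the fit of group means dropped to 199 when IVG replicate 1 was left out and to 223 for IVG replicate 2, and reached 1065 when replicate 3 of that group was left out. That of the fit with kind was 403 and 441 for the former 2 cases. The excess of lower calls in the fit of group means turned round with the 6 libraries alone (634 higher and 336 lower) and without IVV replicate 3 (445 and 332). In total, 397 genes (1.89%) were DEGs in both fits, 120 higher and 277 lower.

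Separation of the libraries was more common than these calls. All 3 IVG libraries lay above all 3 IVV libraries for 1124 genes (5.35%) and below them for 1371 genes (6.53%), together 2495 genes (11.9%). A gene was called separated within kinds where both rRNA-rich IVG libraries lay on the same side of IVV replicate 3 and the rRNA-poor IVG library lay on that side of both rRNA-poor IVV libraries. This held for 3402 genes higher in IVG (16.2%) and 3660 lower (17.4%). With the size factors of DESeq2 in place of those of edgeR the counts were 2544 and 4406. Across the 8341 genes with a mean of at least 10 normalized CPM, the difference in the rRNA-rich libraries and that in the rRNA-poor ones had the same sign for 56.8%, with a Pearson correlation of 0.14 and a Spearman correlation of 0.17, and over all genes tested the correlations were 0.07 and 0.09. The points of these correlations are genes of the same 6 libraries. A term for the difference of IVG against IVV between the kinds, added after the data were seen, passed the same threshold for 601 genes (2.86%) and none after adjustment, with 602 genes at an unadjusted P under 0.05. In all, 240 genes were DEGs in both fits and separated within kinds, 104 higher and 136 lower in IVG.

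The 12 protein-coding genes that led the higher side were Atp2b4, Wdr62, Zfp57, Rlim and 8 others. Levels are given throughout in normalized CPM in the order IVV replicates 2, 3 and 4 and then IVG replicates 1, 2 and 3, and log2 fold changes are IVG against IVV with their standard errors. Atp2b4, a calcium pump of the plasma membrane that lies at chr1:133699457-133801041 on GRCm38, was at 0.963, 2.61 and 0.691 in IVV and at 30.1, 16.7 and 13.2 in IVG. Every IVG library was above every IVV library, by 3.82 ± 1.22 in the fit of group means and 3.55 ± 1.01 in the fit with kind. Wdr62, a scaffold of spindle poles (chr7:30240138-30280419), rose from 3.87, 17.4 and 7.85 to 192, 142 and 23.5, again without overlap, with log2 fold changes of 3.62 ± 1.24 and 2.31 ± 0.69. Zfp57, a zinc finger protein that keeps methylation at imprinted loci (chr17:37001163-37010635), was at 55.2, 181 and 29.6 in IVV and at 1160.4, 925 and 254 in IVG. Its log2 fold changes were 3.14 ± 1.30 and 2.27 ± 0.77, and the difference was of like size in both kinds, at 2.52 in the rRNA-rich and 2.65 in the rRNA-poor libraries. Its call in the fit with kind was lost without IVV replicate 3 or IVG replicate 3, and in the fit of group means without IVV replicate 2, IVV replicate 4 or IVG replicate 1. Rlim, an X-linked ubiquitin ligase known for its maternal part in X inactivation (chrX:103957163-103981284), was at 57.0, 109.8 and 51.4 in IVV and at 997, 819.7 and 75.2 in IVG. Here the rRNA-rich IVG libraries stood apart from the other 4, the difference being 3.04 in that kind and 0.47 in the other, and the call of the fit with kind was lost without IVV replicate 3.

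Of the other 8 leading genes, Crebbp, a histone acetyltransferase, was at 107, 256 and 103 in IVV and 796, 699 and 183 in IVG, and Iqsec1, an exchange factor for the small GTPase Arf6, at 44.0, 90.9 and 40.7 against 389, 311 and 106. Their log2 fold changes in the fit with kind were 1.19 ± 0.34 and 1.51 ± 0.46. Cdv3 had the smallest P among them in the fit with kind, at 95.9, 146 and 154 in IVV and 352, 388 and 258 in IVG, and its differences, 1.34 in the rRNA-rich and 1.08 in the rRNA-poor libraries, were close. Ptpn21 (a tyrosine phosphatase), Zfhx3 (a homeobox and zinc finger transcription factor), Myo19 (a myosin on mitochondria), Zfr (an RNA-binding zinc finger protein) and Atp8a2 (a lipid flippase) completed the 12, with log2 fold changes of 1.19 to 3.14 in that fit. Atp8a2 overlaps the coding gene Nupl1 on the same strand, and their reads cannot be told apart there. On the opposite strand Wdr62 overlaps Thap8, and Myo19 overlaps Znhit3 and Pigw, and the strand setting of the counts is not given. Within its own kind every IVG library was higher for each of the 12, by the rule that chose them. All 12 stayed DEGs in the fit with kind when IVV replicate 2, IVV replicate 4, IVG replicate 1 or IVG replicate 2 was left out, 9 did without IVV replicate 3 and 10 without IVG replicate 3. In the fit of group means between 3 and 11 of them did.

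**Figure D1:**
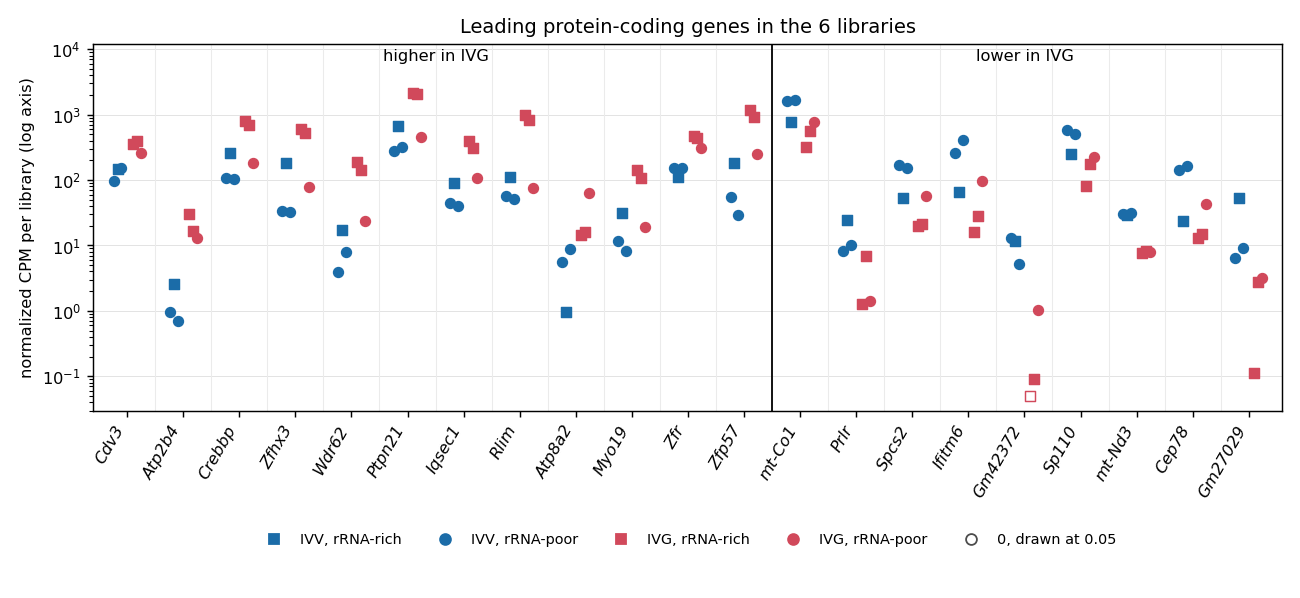
Normalized CPM (log axis) of the protein-coding genes chosen by rule, 12 higher and 9 lower in IVG, with a point per library, blue for IVV and red for IVG, squares for rRNA-rich and circles for rRNA-poor libraries, and an open point for a level of 0. For Atp2b4 the IVG libraries lie at 13.2 to 30.1 and the IVV libraries at 0.691 to 2.61, and for mt-Nd3 at 7.69 to 8.19 and 28.9 to 31.4.

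Of the coding genes that were DEGs in both fits and separated within kinds, 87 were lower in IVG and 81 higher. Only genes with at least 5 normalized CPM in every library of the higher group were ranked, which left 9 on the lower side. 2 of the 9 are encoded in the mitochondrial genome. mt-Co1, the catalytic subunit of cytochrome c oxidase, was at 1604, 782 and 1664 in IVV and 314, 554 and 760.4 in IVG, and mt-Nd3, a subunit of complex I, at 30.01, 28.9 and 31.4 against 7.69, 8.19 and 7.90. The IVG libraries were below the IVV libraries for both, with mt-Nd3 nearly constant within each group, and the log2 fold changes with kind were -1.18 ± 0.36 and -2.05 ± 0.81. The call of mt-Nd3 in the fit of group means was lost whichever of the 6 libraries was left out, and in the fit with kind it held only without IVV replicate 3. The call of mt-Co1 with kind was lost without IVG replicate 1.

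Prlr, the prolactin receptor (chr15:10177238-10349180), was at 8.21, 24.6 and 10.0 in IVV and at 1.26, 6.99 and 1.43 in IVG. It overlaps the predicted coding gene Gm21973 on the same strand. All IVG libraries lay below all IVV libraries, with differences of -3.01 and -2.62 within the kinds and a log2 fold change of -2.59 ± 0.80 in the fit with kind. Spcs2, a subunit of the signal peptidase of the endoplasmic reticulum (chr7:99837569-99863462), fell from 168, 53.7 and 155 to 19.6, 20.9 and 57.6, or by 1.52 on the log2 scale with an SE of 0.50. Within each kind the drop was alike, at -1.40 and -1.49, although IVG replicate 3 was above IVV replicate 3. Sp110, a nuclear body protein, was at 579, 248 and 512 against 81.2, 177 and 227, and Ifitm6, a membrane protein of the interferon-induced family, at 255, 66.1 and 409.7 against 15.8, 28.3 and 97.7. Their log2 fold changes with kind were -1.14 ± 0.41 and -1.63 ± 0.55. Cep78, a centrosomal protein, and the predicted genes Gm27029 and Gm42372 were the others, the predicted genes at 0.112 to 3.15 and 0 to 1.02 in IVG. Reads of Gm27029 can also stem from Aarsd1 and Ptges3l, which it overlaps on the same strand. Of the 9, between 4 and 7 stayed DEGs in the fit with kind without each of the libraries in turn, with 4 for IVG replicate 1. In the fit of group means none did without IVG replicate 1, and 1 to 6 did without another library.

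Genes of the cytosolic ribosome were lower in IVG as a group, although few passed the threshold gene by gene. All 83 ribosomal protein genes of the list were tested. None was higher and 1 was lower in the fit of group means, and 5 were lower in the fit with kind. Over all genes 1.91% and 2.59% were lower in the 2 fits. The median log2 fold change was -1.31 and -0.76 in the fits, against -0.20 and 0.03 over all genes. In the rRNA-rich libraries the median difference was -0.88 and in the rRNA-poor ones -0.56, against 0 and -0.03 over all genes. Within kinds 58 of the 83 were separated with IVG lower (33 of 50 of the large and 25 of 33 of the small subunit), which is 69.9% against 17.4% of all genes, and none with IVG higher. For no gene of the list did all IVG libraries lie below all IVV libraries, against 6.53% of all genes. The rRNA-poor libraries alone put 72 below (86.7%, against 40.4% of all genes) and the rRNA-rich libraries alone 66 (79.5%, against 39.9%).

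The genes with the smallest P in the fit with kind were Rps26, Rpl35a, Rps23 and Rps14. Rps26 (chr10:128624534-128626747) was at 415, 77.4 and 425 in IVV and at 21.5, 23.0 and 167 in IVG, and Rpl35a (chr16:33056453-33060189) at 300.5, 21.3 and 278 against 2.11, 2.36 and 92.8. Within each kind the IVG libraries were the lower, but IVG replicate 3 was above IVV replicate 3 for both genes, so that the groups as a whole overlapped. The log2 fold changes with kind were -1.68 ± 0.50 and -2.45 ± 0.81, and both calls held in that fit under all 12 alternatives. Rps23 and Rps14 fell by 2.04 and 1.19 in the same fit with SEs of 0.79 and 0.50, and lost the call without IVG replicate 1, IVG replicate 2 or IVV replicate 3, Rps14 also without IVV replicates 2 or 4. The other DEG of that fit was Rpl37, whose reads cannot be told apart with certainty from those of its retrocopy Rpl37rt. The 1 DEG of the fit of group means was Rps18, at 130.5, 22.1 and 98.5 against 14.1, 10.3 and 28.6. Many ribosomal protein genes have processed copies elsewhere in the genome, and how reads that match several places were counted is not given in the sources used here.

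Ribosomal protein messengers are known for a tract of pyrimidines that opens with C at the very start of the transcript and couples their translation to nutrient signaling. In RefSeq promoter windows of GRCm38.p6 (250 bases before to 50 after the annotated start), a C followed by at least 5 pyrimidines began within 10 bases of the start on the sense strand in 34 of the 62 ribosomal protein genes with a window (54.8%), and in 22.6% of the 13267 tested genes with a window. Other lists with windows ranged from 0 of 30 heat shock genes to 6 of 9 zona and growth factor genes (66.7%). The share was 42.9% for maternal chromatin and 42.3% for calcium genes. The windows of 30 bases around the start are shown for 5 such genes among those with the smallest P in the fit with kind, since these lead the ribosomal list, with the tract in capitals. They lie at chr10:128626492-128626521 (minus strand), chr16:33056467-33056496 (plus), chr13:90923107-90923136 (plus), chr11:114668565-114668594 (plus) and chr17:33955651-33955680 (minus).
Rps26: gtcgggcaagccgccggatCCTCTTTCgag
Rpl35a: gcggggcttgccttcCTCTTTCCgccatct
Rps23: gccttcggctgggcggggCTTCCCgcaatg
Rpl38: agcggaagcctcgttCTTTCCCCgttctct
Rps18: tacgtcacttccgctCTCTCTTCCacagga
The capitals open with the C of a tract that lies nearest the annotated start. That C was at the start in Rpl35a, Rpl38 and Rps18, and 3 and 4 bases downstream of it in Rps23 and Rps26. In Rpl35a and Rps18 the unbroken run of pyrimidines opened with a C further upstream. The levels of Rpl38 were 623, 28.1 and 581 in IVV and 4.18, 4.67 and 262 in IVG, again lower within each kind (-2.65 and -1.20). Of 8 motifs searched in all, CCGGAAG, read on both strands, was in 25 of the 62 windows (40.3%) against 16.7% of all. This motif was not special to the ribosomal list. Among other lists it ranged from 0 of 26 calcium genes to 15 of 30 proteasome genes with a window. The share was 37.7% for mitochondrial ribosomal proteins and 34.4% for initiation factors. The proteasome list had medians of -0.13 and 0.23 in the fits, against -0.20 and 0.03 over all genes.

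The nuclear genes of oxidative phosphorylation showed the same pattern. Of 79 subunit genes tested, none was a DEG in the fit of group means, where 2.76% of all genes were. In the fit with kind 3 were lower (Atp5e, Cox6a1 and Cox6b1), against 2.59% of all genes. The medians were -1.39 and -0.67 in the fits, and -0.58 and -0.60 in the rRNA-rich and rRNA-poor libraries. Within kinds 45 were separated with IVG lower (57.0%, against 17.4% of all genes) and 6 with IVG higher (7.59%, against 16.2%). By complex, the lower ones were 20 of 36 subunits of complex I, none of 4 of complex II, 5 of 9 of complex III, 8 of 13 of cytochrome c oxidase and 12 of 17 of the ATP synthase. Atp5e, the epsilon subunit of ATP synthase, was at 2330.0, 113 and 2321 in IVV and at 22.0, 21.0 and 1054 in IVG, which is a spread between kinds larger than that between groups. Its log2 fold change with kind was -1.87 ± 0.87. Cox6b1 was at 270.04, 37.4 and 268 against 10.1, 9.05 and 150.3, and fell by 1.46 in that fit with an SE of 0.63. All 3 calls were lost when any library but IVG replicate 3 was left out.

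All 13 messengers made from the mitochondrial genome were lower in IVG replicate 3 than in both rRNA-poor IVV libraries, with a median of -1.15. Of all genes tested, 40.4% were lower in that comparison. In the rRNA-rich libraries the median was -0.21, with IVG replicate 1 at -0.60 and IVG replicate 2 at 0.12 against IVV replicate 3. In each fit 3 of the 13 were DEGs, all lower, against 1.91% and 2.59% of all genes. mt-Nd1 was at 344, 150.0 and 385 in IVV and 75.2, 130.1 and 119.7 in IVG, so that IVV replicate 3 lay close to the IVG libraries. The mitochondrial ribosomal proteins are encoded in the nucleus. They had no DEG in the fit of group means and 1 in the fit with kind, against 2.76% and 3.83% of all genes. Within kinds 26 of 78 were separated with IVG lower and 5 higher (33.3% and 6.41%, against 17.4% and 16.2% of all genes). Their medians of -0.18 and -0.30 within the kinds were nearer to those of all genes.

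Coding genes with up to 1000 exon bases were lower in IVG as a whole. The ribosomal and oxidative phosphorylation genes are shorter at the median than all genes. Among 7774 protein-coding genes with a mean of at least 10 normalized CPM, the 184 with a summed exon length of up to 1000 bases had median differences of -0.59 in the rRNA-rich and -0.58 in the rRNA-poor libraries, and the 1695 with over 8000 bases had 0.38 and 0.17. Without the genes of the ribosomal and oxidative phosphorylation lists, the 146 short genes left had medians of -0.50 and -0.54, and 48.6% of them were separated within kinds with IVG lower. The median exon length was 1770 bases for cytosolic ribosomal proteins and 1718 for nuclear oxidative phosphorylation subunits, against 3293 for all genes tested. This length joins all annotated exons of a gene and can exceed that of a single messenger. The 817 coding genes with over 1000 and up to 2000 bases had median differences of -0.09 in the rRNA-rich and -0.20 in the rRNA-poor libraries. Of these, 28.8% were separated within kinds with IVG lower. The part of exon length in the result of either list was not tested. The coding genes that were DEGs in both fits and separated within kinds had a median exon length of 5911 bases where higher (81 genes) and 3135 where lower (87 genes).

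**Figure D2:**
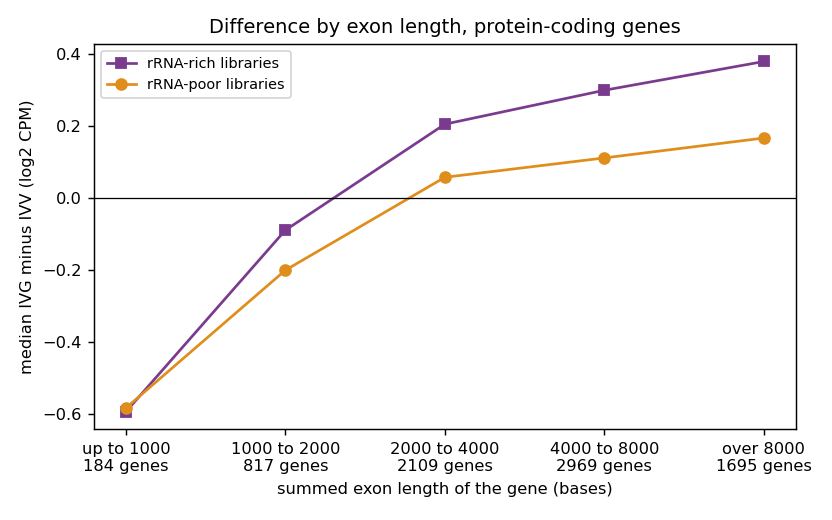
Median difference of IVG minus IVV in log2 CPM against the summed exon length of protein-coding genes with a mean of at least 10 normalized CPM, in 5 bins whose gene numbers stand under the axis, with purple squares for rRNA-rich and orange circles for rRNA-poor libraries. Both lines climb from about -0.59 and -0.58 in the shortest bin to 0.38 and 0.17 in the longest.

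Genes of cholesterol synthesis and uptake tended the other way. Oocytes make little cholesterol and are known to receive it from cumulus cells. Of the 26 genes tested 1, Srebf2, was a DEG in each fit, higher in IVG, against 0.842% and 1.24% of all genes. The medians were 0.80 and 0.78 in the fits, and 0.76 and 0.47 in the rRNA-rich and rRNA-poor libraries. Within kinds 10 genes were separated with IVG higher (38.5%, against 16.2% of all genes, and 8 with the size factors of DESeq2) and 1, Abca1, with IVG lower (3.85%, against 17.4%). For 7 of the 26 genes all IVG libraries lay above all IVV libraries, against 5.35% of all genes. Srebf2, the transcription factor that drives the pathway when sterols are low (chr15:82147181-82205379), was at 32.3, 44.0 and 39.5 in IVV and at 187, 126 and 61.8 in IVG. Its log2 fold changes were 1.69 ± 0.76 and 1.10 ± 0.49. The call of the fit of group means held only without IVG replicate 3, and that of the fit with kind only without IVG replicate 2 or IVV replicate 4. The micro RNA gene Mir33 lies inside it on the same strand.

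The enzymes further down the pathway stayed short of the threshold. Sc5d, a desaturase of the last steps, was at 14.3, 13.3 and 13.4 in IVV and at 44.8, 56.6 and 22.0 in IVG, with a log2 fold change of 1.83 ± 0.92 with kind. Of the genes picked after their values were seen, Msmo1 was at 18.8, 15.5 and 21.5 against 44.5, 43.2 and 32.9, Idi1 at 17.6, 21.9 and 17.3 against 57.6, 62.9 and 28.9, and Insig1 at 95.1, 68.6 and 105 against 199, 163 and 153. None of these overlapped between the groups, yet none was a DEG, with log2 fold changes of 1.05 ± 0.56, 1.60 ± 1.495 and 0.95 ± 0.59 in the fit with kind. Promoters of sterol genes are known for CCAAT boxes bound by NF-Y beside the sites of the sterol-responsive factors. CCAAT, read on both strands, was in 16 of the 18 cholesterol genes with a RefSeq window (88.9%) and in 42.5% of all tested genes with a window, but also in 85.7% of the cell cycle genes, 81.3% of the subcortical complex and NLRP genes and 76.7% of the heat shock genes with one. The box nearest the 5' end of the window is shown in capitals for the 4 genes of the list with the smallest P in the fit with kind that hold it, as ATTGG where it lies on the other strand. The stretches lie at chr15:82147122-82147150 (plus), chr9:42264308-42264336 (minus), chr8:64733722-64733750 (minus) and chrX:72918400-72918428 (plus).
Srebf2: cttcgcgcgccgATTGGctaatgcaagcc
Sc5d: cgccggctgctgATTGGccggctgcctgc
Msmo1: ccatccgcgcagCCAATgactggcgccgc
Nsdhl: agcccgcttcccATTGGtttgggaacgaa
Nsdhl, whose product removes a methyl group on the way to cholesterol, was at 27.6, 16.98 and 27.6 in IVV and 48.0, 71.3 and 29.7 in IVG. A match of letters in these windows is a description and not a measured site.

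**Figure D3:**
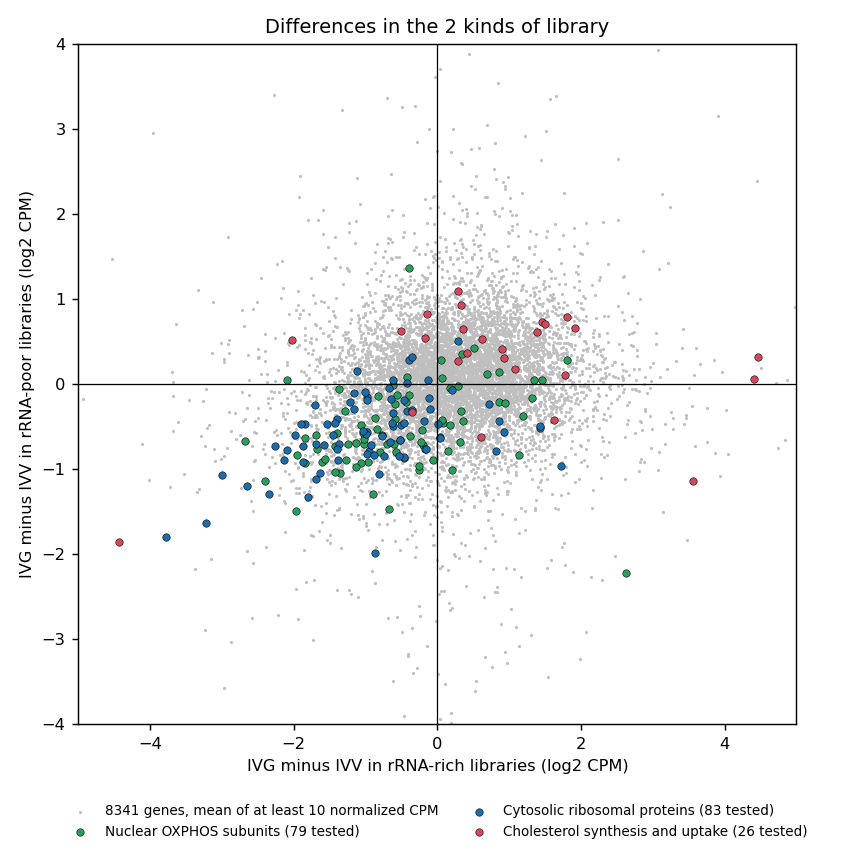
Difference of IVG minus IVV in log2 CPM in the rRNA-rich libraries (horizontal) against that in the rRNA-poor libraries (vertical) for 8341 genes with a mean of at least 10 normalized CPM in grey, with ribosomal protein genes in blue, nuclear oxidative phosphorylation genes in green and cholesterol genes in red. The blue and green points crowd into the lower left and most red points lie in the upper right, with 52 genes and 3 list members outside the plotted range.

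Few of the factors that define the oocyte passed the threshold, as was so for all genes tested (2.76% and 3.83% in the 2 fits). Of 18 oocyte transcription factors tested, none was a DEG in the fit of group means and 1, Obox5, in the fit with kind. Within kinds 6 were separated with IVG higher (33.3%, against 16.2% of all genes) and none lower (against 17.4%). Obox5, an oocyte homeobox gene (chr7:15750131-15759800), was at 375, 182 and 549 in IVV and at 519, 531 and 801 in IVG. Within each kind IVG was higher, by 1.52 and 0.82, and the log2 fold change with kind was 1.21 ± 0.33, a call that held under all 12 alternatives of that fit. Nobox, which governs follicle formation and oocyte genes, was at 256, 446 and 276 against 831, 728 and 356 and did not pass. Sohlh2, a factor of early oocyte growth, was at 6.64, 0.728 and 5.26 in IVV and at 16.0, 11.9 and 8.36 in IVG, without overlap, but the log2 fold changes of 1.52 ± 1.45 and 1.33 ± 1.57 did not pass. For Lhx8 (133, 178 and 132 against 329, 286 and 118) and Foxo3 (181, 808 and 173 against 1564, 1210.1 and 171) the rRNA-rich IVG libraries were the highest and the rRNA-poor library was among the lowest.

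Messengers of the zona pellucida and of the growth factors of the oocyte gave no DEG, where 2.76% and 3.83% of all genes were. Zp1 was at 789.8, 1001 and 712 in IVV and 1049, 962 and 657 in IVG, with a log2 fold change with kind of 0.01 and a 95% interval of -0.77 to 0.78. Zp3 was at 3762, 718 and 3097 against 733, 796 and 2963, which follows the kind of library, and its log2 fold change with kind was -0.05 (-0.56 to 0.46). Gdf9, the growth factor by which the oocyte directs its granulosa cells, stood at 0.03 ± 0.24 in that fit. Of the 15 genes of this list 5 were separated within kinds with IVG higher and 2 lower (33.3% and 13.3%, against 16.2% and 17.4% of all genes). Zp4-ps, the mouse relic of a zona gene, was at 37.1, 4.12 and 38.0 in IVV and 4.07, 2.83 and 24.0 in IVG, lower within each kind (-0.27 and -0.64) but far from the threshold. Suv39h1, a histone methyltransferase, had its highest level, 7.76, in IVG replicate 3 and 5.82 in IVV replicate 3, and the differences within the kinds had opposite signs (-1.26 and 2.17).

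**Figure D4:**
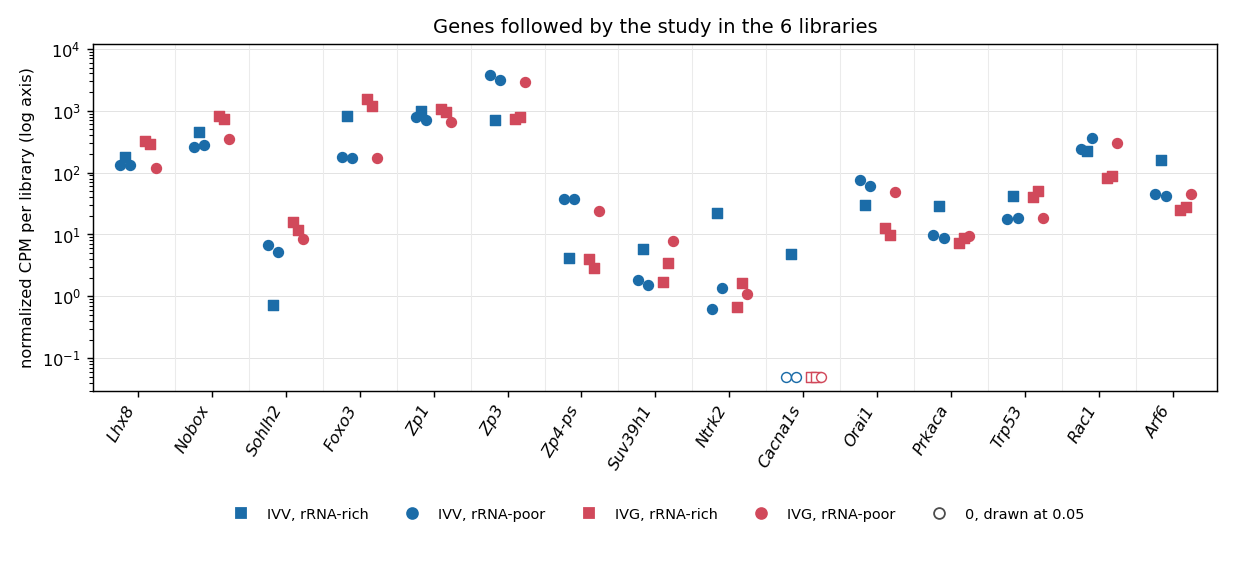
Normalized CPM (log axis) of the 15 genes the study followed, with a point per library, blue for IVV and red for IVG, squares for rRNA-rich and circles for rRNA-poor libraries, and open points for a level of 0. For Ntrk2, Cacna1s, Prkaca and Arf6 the rRNA-rich IVV library lies above the other 5, at 22.5, 4.91, 28.6 and 160.

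The subcortical maternal complex sits under the oocyte membrane and serves cleavage. Of 17 genes of this complex and of the NLRP family, 1, Khdc3, was a DEG in the fit with kind, against 3.83% of all genes. Within kinds 6 were separated with IVG lower (35.3%, against 17.4% of all genes) and 3 with IVG higher (17.6%, against 16.2%). Khdc3 was at 616, 154 and 630.2 in IVV and 62.7, 49.96 and 404 in IVG, lower within each kind, with a log2 fold change of -1.06 ± 0.46. The call was lost without IVG replicate 1, IVG replicate 2, IVV replicate 3 or IVV replicate 4. Its reads cannot be told apart from those of Gm20509, which overlaps it on the same strand. Tle6, another member, was higher within kinds (1119.7, 489 and 837 against 699, 738 and 1545), at 0.63 ± 0.28, below the fold limit.

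The 30 cell cycle genes that carry the oocyte through meiosis included 3 DEGs in the fit with kind, all higher in IVG, against 1.24% of all genes. Within kinds 11 of 30 were separated with IVG higher and 1 lower (36.7% and 3.33%, against 16.2% and 17.4% of all genes). Cdk1, the kinase of M-phase entry, was at 82.1, 11.5 and 83.6 in IVV and 65.3, 72.4 and 97.7 in IVG, and Cdc20, the activator of the anaphase-promoting complex, at 126, 28.4 and 119 against 82.8, 112 and 166. IVV replicate 3 was the lowest for both, and the differences were 2.57 and 1.76 in the rRNA-rich libraries but 0.24 and 0.44 in the rRNA-poor ones. The log2 fold changes with kind were 1.25 ± 0.54 and 1.08 ± 0.44, and both calls were lost without IVV replicate 3 or IVG replicate 2, that of Cdk1 also without IVG replicate 1 and that of Cdc20 also without IVV replicate 4. Mastl, the Greatwall kinase that shields Cdk1 substrates, was the DEG of both fits, at 88.5, 127 and 99.9 in IVV and 473, 459 and 112 in IVG, with log2 fold changes of 1.73 ± 0.75 and 1.47 ± 0.68. Its calls held only without IVG replicate 3. The interaction with kind passed the threshold for 3 of the 30 genes. Mos, which holds the later arrest at metaphase, was at 0.34 ± 0.40 in the fit with kind.

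Among 33 genes of maternal chromatin 2 were DEGs in both fits, against 1.89% of all genes. They were Zfp57, described above, and Tet3. Tet3 oxidizes methylated cytosine in the paternal genome after fertilization. It was at 564, 1349.9 and 570.1 in IVV and 5799.9, 2905 and 756 in IVG, higher within each kind (1.60 and 0.42), with log2 fold changes of 1.93 ± 0.78 and 1.25 ± 0.48. The call with kind was lost without IVG replicate 1 or IVV replicate 3. Within kinds 11 genes of the list were separated with IVG higher and 4 lower (33.3% and 12.1%, against 16.2% and 17.4% of all genes). Dppa3, which guards maternal methylation in the zygote and was picked after its values were seen, was among the lower, at 8877, 414 and 8392 against 397, 347 and 3945, or -0.86 ± 0.33 with kind. Dicer1, the enzyme that makes small interfering RNA in the oocyte, was at 232, 611 and 154 against 1352, 1211 and 279 and was higher by 0.90 ± 0.40 in the fit with kind, below the fold limit. Of 34 genes of messenger storage and decay none was a DEG, where 2.76% and 3.83% of all genes were in the 2 fits. Among 40 initiation factors 1, Eif5b, was a DEG, in the fit with kind (-1.002 ± 0.34). It was at 292, 838 and 365 against 302, 242 and 257. The call of Eif5b was lost without IVG replicate 1, IVG replicate 2 or IVV replicate 3.

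For the receptor of NT-4 and for calcium and cyclic AMP signaling, which the study followed, the highest level was often that of IVV replicate 3. NT-4 acts through TrkB, the product of Ntrk2. Ntrk2 was at 0.628, 22.5 and 1.36 in IVV and at 0.674, 1.63 and 1.11 in IVG, so that a drop was seen in the rRNA-rich libraries alone (-4.35, against 0.24 in the rRNA-poor ones). Its log2 fold change was -2.83 ± 1.95, and -2.16 ± 1.85 with kind. Cacna1s, a subunit of the voltage-gated calcium channel of muscle, was counted in IVV replicate 3 alone, at 81 reads and 4.91 normalized CPM, and was at 0 in the other 5 libraries. It was called a DEG in both fits, and the calls were lost without IVV replicate 3, IVG replicate 1 or IVG replicate 2. Prkaca, the catalytic subunit of protein kinase A, was at 9.91, 28.6 and 8.78 against 7.33, 8.64 and 9.40, and Arf6, a small GTPase of the cortex, at 45.8, 160 and 42.6 against 24.6, 27.4 and 45.6. In the rRNA-poor libraries their differences were 0.01 and 0.04.

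Orai1, the calcium channel of store-operated entry, was the exception among these genes, lower in IVG within both kinds. It was at 77.1, 30.5 and 60.2 in IVV and 12.5, 9.71 and 49.5 in IVG, with differences of -1.46 and -0.46, but the fold changes of -1.23 ± 1.47 and -0.81 ± 1.15 in the fits did not pass. Of all genes tested, 2.76% and 3.83% were DEGs in the 2 fits. Of 34 genes of calcium signaling and fertilization 1 was higher and 1 lower in each fit, Atp2b4 and Cacna1s. Within kinds 7 were separated in each direction (20.6%, against 16.2% higher and 17.4% lower of all genes). Of 21 genes of meiotic arrest by cyclic nucleotides none was a DEG, and Pde3a, the phosphodiesterase whose activity ends the arrest, was at 81.3, 287 and 77.7 against 536, 431 and 98.9 (0.59 ± 0.41 with kind). None of the 10 neurotrophin genes tested was a DEG, and Ntrk3 (1.76, 27.4 and 2.46 against 4.38, 5.58 and 3.86) and Bdnf (0.230, 6.12 and 0 against 0, 0.272 and 0) likewise had their highest level in IVV replicate 3. Trp53 (17.5, 41.2 and 18.3 against 40.0, 49.7 and 18.5) and Rac1 (237, 223 and 358 against 82.7, 89.0 and 298) did not pass in either fit, with 0.71 ± 1.43 and -0.64 ± 0.71 with kind.

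Phosphoinositide signaling included 2 higher genes among 35 in the fit of group means, against 0.842% of all genes. Pdpk1, the kinase that activates Akt, was at 51.6, 47.0 and 40.5 in IVV and 271, 231 and 45.2 in IVG, where the rise was in the rRNA-rich libraries alone (2.41 against -0.01), with a log2 fold change of 1.98 ± 0.80 that held only without IVG replicate 3 or IVV replicate 2. Pik3cd, a catalytic subunit of phosphoinositide 3-kinase, was at 13.0, 538 and 229 in IVV and 1717, 1237 and 339 in IVG, higher within both kinds but with a wide spread in IVV. It was a DEG in both fits (2.08 ± 0.95 and 1.69 ± 0.74), and both calls were lost without IVG replicate 1 or IVG replicate 2, that of the fit of group means also without IVV replicate 2 or IVV replicate 4.

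Metabolic and stress genes gave few calls, as did all genes tested (2.76% and 3.83% in the 2 fits). In each fit 1 of 30 fatty acid genes and 1 of 38 apoptosis and DNA damage genes was a DEG. Of 36 antioxidant genes none was in the fit of group means and 1 in the fit with kind. Acads, which opens the oxidation of short-chain fatty acids (chr5:115110299-115119346), was at 33.7, 4.43 and 34.7 in IVV and at 0, 0 and 0.123 in IVG, the clearest loss among the listed genes. Its log2 fold changes of -9.02 ± 3.06 and -8.88 ± 2.37 depend on the handling of zeros, and the calls held whichever of the 6 libraries was left out. The call of the fit of group means was lost with the Wald test of DESeq2 and in the rRNA-rich libraries alone. Rpl37rt, which lies 30 bases from it on the same strand, was lower as well, at 1325, 23.2 and 1446 in IVV and 3.23, 2.95 and 67.6 in IVG. Pmaip1, a pro-apoptotic BCL2 family member known as Noxa, was at 0.398, 4.18 and 0.630 in IVV and at 0 in all IVG libraries, with most of its level in IVV in replicate 3. The call with kind was lost without IVV replicate 3. Bcl2l10, the abundant anti-apoptotic member of oocytes, was at 5729.7, 3237 and 5027 against 1867, 1669 and 4105, lower within kinds by 0.87 and 0.39 but below the fold limit. Gpx3, a glutathione peroxidase, was at 42.5, 15.3 and 41.7 in IVV and 97.1, 88.7 and 71.0 in IVG, without overlap, and its call with kind (1.41 ± 0.65) was lost whichever library was left out. Hsp90aa1, a chaperone, was at 3231, 2178 and 2866 against 1434, 1185 and 2459 (-0.58 ± 0.26 with kind). No gene of the proteasome, heat shock, spindle checkpoint, glucose or actin lists (26 to 40 tested in each) was a DEG in either fit, where 2.76% and 3.83% of all genes were. Of 28 imprinted genes 1, Rasgrf1, was a DEG, at 0.545, 0.364 and 0.325 in IVV and at 0 in IVG, a call that most of the left-out libraries ended.

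**Figure D5:**
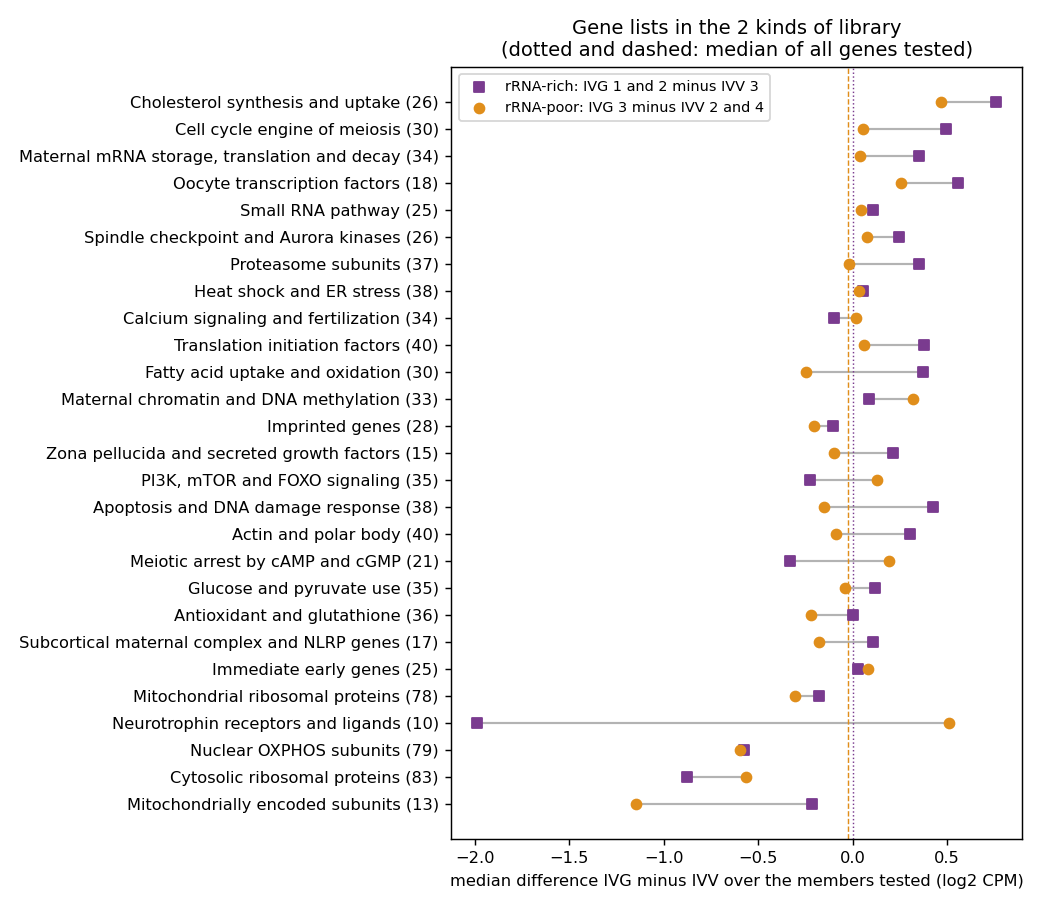
Median difference of IVG minus IVV in log2 CPM over the tested members of each gene list (their number in brackets), purple squares for rRNA-rich and orange circles for rRNA-poor libraries, with the median of all genes as vertical lines at 0 and -0.03. Cytosolic ribosomal proteins (-0.88 and -0.56) and nuclear OXPHOS subunits (-0.58 and -0.60) lie left in both kinds and cholesterol genes (0.76 and 0.47) right, and the neurotrophin list has the widest gap between the kinds.

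Markers of somatic cells were present at low level in both groups. The 22 tested granulosa and cumulus markers summed to 539.7, 950.3 and 607 normalized CPM in IVV and 942, 1246 and 628 in IVG, with 2 to 9 of them at 0 in a library, so that the groups overlapped. The list went both ways, with medians of -0.44 and -0.41 in the fits. Of the 22, 6 were separated within kinds with IVG higher and 5 lower (27.3% and 22.7%, against 16.2% and 17.4% of all genes). The groups did not overlap for 4 higher and 3 lower genes, against 5.35% and 6.53% of all genes. Has2, the hyaluronan synthase of the expanding cumulus, was the 1 DEG among them in both fits, where 1.89% of all genes were. It was at 0, 0 and 0.122 in IVV and 2.89, 0.499 and 1.67 in IVG. Both of its calls were lost without IVG replicate 1, IVG replicate 3, IVV replicate 2 or IVV replicate 3. Fshr, the FSH receptor, was at 6.97, 1.94 and 5.22 against 9.38, 16.1 and 8.20, and Amhr2, the receptor of anti-Müllerian hormone, at 1.88, 2.43 and 3.50 against 0, 0.635 and 1.16. Both were chosen after their values were seen, and neither was a DEG. The 15 theca and stroma markers summed to 40.2, 40.9 and 25.5 in IVV and to 10.5, 12.8 and 50.3 in IVG, and Cyp17a1, which defines theca, reached 16.9 in IVV replicate 3 against 0 to 1.29 elsewhere. The 15 blood and macrophage markers summed to 47.0 to 84.8 and 51.1 to 86.8. The part of residual somatic cells in the results was not tested.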

How the data were processed

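RNA of pools of 6 germinal vesicle oocytes was amplified with SMART-Seq2, which primes at the poly(A) tail, uses PCR and adds no molecular identifiers. The authors deposited counts per gene for each library, as whole numbers under Ensembl identifiers. Reads had been trimmed and aligned with HISAT2, and the submitters' processing notes name FastQC, HISAT2, edgeR and mm10. The program, strand setting and annotation behind the deposited counts are not given in the sources used here. Overlapping genes on opposite strands may therefore share reads, such as Spcs2 and Xrra1, Cdc20 and Elovl1, Rac1 and Daglb, or Rps14 and Ndst1. Of 55401 identifiers 99.5% had a symbol in GENCODE vM21 (GRCm38). Libraries held 19033272 to 45575465 counts among the 6 compared.

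The main test was the quasi-likelihood F test of edgeR 4.0.16 (R 4.3.3, limma 3.58.1) with TMM normalization, over all 15 libraries as 5 group means, after a filter by group at a minimum count of 10. A second fit added the kind of library, with rRNA-rich set at over 5% of counts in CT010467.1. P is unadjusted unless named as adjusted, and every adjusted p of the quasi-likelihood test (Benjamini-Hochberg) was 1 in both fits. Standard errors are the fold change divided by the root of F. Levels are CPM with TMM factors, and differences within kinds are of log2 CPM with a prior count of 2, with no test. The fits were checked on simulated data.

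Named genes were 15 genes of the study, the 12 coding genes in each direction with the smallest P in the fit with kind among DEGs of both fits that were separated within kinds and had at least 5 normalized CPM in every library of the higher group (9 existed on the lower side), the 3 genes of other types in each direction by the same rule, and up to 4 members of each of 31 lists. Others were chosen after their values were seen. The comparison, the lists and the kinds were chosen with earlier results of these data known. The labels give 3 samples per group, the methods 3 replicated experiments without saying which samples share one, so P measures the spread between these samples. Alternatives were DESeq2 1.42.0 and its size factors, no filter, the exact test of edgeR, the 6 libraries alone, 1 kind of library, a replicate block, the rRNA gene left out and each library left out. Promoter windows are those of RefSeq for GRCm38.p6.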

Additional observations from a re-analysis of the deposited data

How the results depend on the processing

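Counts of DEGs depended strongly on the libraries and the filter. In the fit of group means (579 DEGs, 177 higher and 402 lower) they were 1637 with 1405 lower and 1 past adjustment without a filter, 970 with 634 higher in the 6 libraries alone, 2433 with 840 higher, 1593 lower and 13 past adjustment in the rRNA-poor libraries alone (1 residual degree of freedom), 241 lower in the rRNA-rich libraries alone and 246 lower by the exact test, and the Wald test of DESeq2 gave 66 past adjustment. With kind in the fit (805 DEGs, 260 and 545) they were 1602 with 1401 lower without a filter, 1497 with 743 higher in the 6 libraries alone, and 822 lower with 272 past adjustment by DESeq2. With the replicate block the fit of group means gave 534 DEGs with 40 higher, and the fit with kind 291, with 124 higher and 167 lower. Nothing in the sources ties same-numbered samples together. The deviations of same-numbered libraries from their group means correlated at -0.28 (replicate 2) and -0.49 (replicate 3), but such libraries are of opposite kind, so whether they share an experiment was not tested. Leaving out a library gave 199 to 1065 DEGs (45 to 445 higher, 125 to 730 lower), and with kind 403 to 1187 (142 to 436 higher, 247 to 789 lower, 0 to 1 past adjustment). Of the 579 and 805 DEGs 300 and 479 were called again by DESeq2. The size factors of DESeq2 moved the median log2 fold change of all genes from -0.20 to -0.39, and with kind from 0.03 to -0.12. The rRNA-poor libraries alone, an alternative chosen after seeing the data, put 7409 genes higher and 8478 lower, and 18 cholesterol genes higher.

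Some named genes turned in sign, and the cause was not tested. In the fit of group means Gsta4 was at -0.13 and Zp1 at -0.12 with DESeq2 and with its size factors. In the rRNA-poor libraries alone the values were -0.042 for Rdx, 0.21 for Jund, 2.20 for Cyp17a1, 0.15 for Akap1, -4.996 for Ngfr, -0.15 for Psmc6, -0.025 for Foxo3, -0.13 for Lhx8, 0.18 for Ntrk2, 0.036 for Prkaca, 0.032 for Rac1, -0.16 for Zp1 and 0.071 for Arf6. In the rRNA-rich libraries alone they were 7.74 for Cd68, -1.16 for Suv39h1 and 0.11 for Zp3. With the replicate block they were 0.59 for Cd68, -0.081 for Pde3a, -1.15 for Kit, -0.96 for Foxo3 and -0.075 for Zp1. With kind, Zp1 was at -0.16 with DESeq2 and its size factors and -0.068 with the replicate block, and Zp3 at 0.059 in the 6 libraries alone. Without each library in turn the ranges were -0.065 to 0.27 for Zp1, -0.35 to 0.41 for Gsta4, -0.18 to 0.59 for Tle6, -0.25 to 1.32 for Suv39h1, -0.79 to 0.25 for Cd68, -0.068 to 0.70 for Cdc20, -0.12 to 0.75 for Cdk1, -10.66 to 0.57 for Cyp17a1, -0.56 to 0.54 for Akap1, -0.067 to 0.46 for Psmc6 and -3.37 to 0.15 for Ntrk2. With kind they were -0.093 to 0.18 for Zp1, -5.35 to 2.55 for Hba-a2, -0.45 to 1.56 for Suv39h1, -0.11 to 0.044 for Zp3, -6.32 to 1.07 for Slc16a7, -10.67 to 1.45 for Cyp17a1, -0.069 to 0.36 for Foxo3, -1.08 to 0.26 for Orai1 and -0.91 to 0.056 for Rac1.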

Other observations

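Long intergenic noncoding RNAs were lower in IVG more often than higher. Of 1276 tested, 11 were higher and 56 lower in the fit of group means, 23 and 70 with kind, and 290 were separated within kinds with IVG lower against 68 higher. Over all 21009 genes the calls also leaned lower, with 177 higher and 402 lower in the fit of group means and 260 and 545 with kind, whereas 3660 were separated within kinds with IVG lower and 3402 higher. The median log2 fold changes of these noncoding RNAs were -1.17 and -0.44, against -0.20 and 0.03 over all genes. Of 775 antisense RNAs 126 were separated with IVG lower and 51 with IVG higher, while the 1836 processed pseudogenes were even, at 258 and 270. Without a known strand setting, antisense reads cannot be told apart from those of their partners.

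Pseudogenes named by rule went both ways. Rpl19-ps3 was at 0.859, 0.606 and 1.75 in IVV and 16.5, 8.39 and 20.5 in IVG, higher in every IVG library, and its call with kind held whichever library was left out. Rpl37rt was lower in both fits under all settings run, and its level differed more between the kinds of library than between the groups. Gm15387 was at 86.1, 92.6 and 78.4 in IVV and 34.5, 29.1 and 23.1 in IVG, nearly constant within each group. Reads of pseudogenes can stem from other genes of the same family.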
